A study of Homo sapiens with 2 samples.

Results

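The data describe 9 enzymes that make and interconvert asparagine, glutamine, glutamate and proline in Huh7 cells, an established line from a human hepatocellular carcinoma. They were chosen by gene symbol from a list of 9 names (ASNS, GLS2, GLUL, GLUD1, GOT1, GOT2, GPT2, PYCR1 and ALDH18A1). All 9 were found among 25343 entries of the expression tables, and 8 of them were among the 13745 entries with a mean of at least 1 TPM over both libraries. TPM is a transcript abundance scaled to transcript length, and the TPM of all entries of a library add up to 1000000. Cells grown in DMEM with fetal bovine serum were plated (500000 to a well) and received either high glucose medium, with 4.5 g/L, or low glucose medium, with 0.45 g/L, over 6 days, and only live cells were reseeded at each passage. Each medium is represented by 1 library, so a difference between media has no replicate check and carries no p-value. Read counts are not given, so the depth of the libraries was not determined. Whether glutamine or other amino acids in the medium differed from the usual recipe is not given in the sources used here.

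These enzymes sit around glutamate. Glutaminases release glutamate from glutamine, and glutamine synthetase makes glutamine again from glutamate and ammonia. Glutamate dehydrogenase and the aminotransferases exchange glutamate with 2-oxoglutarate, which links amino acids to the TCA cycle. Asparagine synthetase passes the amide nitrogen of glutamine to aspartate, and the proline branch reduces glutamate to proline through pyrroline-5-carboxylate (P5C). ASNS is a textbook target of ATF4, the transcription factor that is translated when the integrated stress response is active. In liver, glutamine synthetase marks perivenous hepatocytes and glutaminase 2 marks periportal ones. The standard DMEM recipe contains glutamine but no asparagine, aspartate, glutamate, alanine or proline.

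The promoter of ASNS carries the elements through which the gene is known to respond to amino acid and endoplasmic reticulum stress. Promoter windows of 300 bases, from 250 before to 50 after the gene start, were taken from RefSeq on GRCh38.p14 for 7 of the 9 enzymes; GPT2 and PYCR1 had no entry. The windows were searched on both strands for the C/EBP-ATF composite element TGATGNAA and for GTTACA, the second nutrient-sensing element described for ASNS. Below are 130 bases upstream of the start of ASNS (chr7:97872409-97872538, minus strand) and of GLUD1 (chr10:87094844-87094973, minus strand), and the 130 bases of the GOT1 window that begin 250 bases before its start (chr10:99430745-99430874, minus strand). They are shown because ASNS was the enzyme with the largest positive difference, GLUD1 the one with the largest negative difference, and GOT1 the only other of the 7 with a composite match. Each is written 5′ to 3′ on the strand of its gene, with matches to either element in capitals.
ASNS: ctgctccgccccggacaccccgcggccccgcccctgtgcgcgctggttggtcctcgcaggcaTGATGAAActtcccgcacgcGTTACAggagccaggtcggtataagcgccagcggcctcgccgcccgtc
GOT1: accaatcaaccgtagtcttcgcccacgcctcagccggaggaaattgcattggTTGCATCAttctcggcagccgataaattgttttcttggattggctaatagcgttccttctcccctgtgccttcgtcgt
GLUD1: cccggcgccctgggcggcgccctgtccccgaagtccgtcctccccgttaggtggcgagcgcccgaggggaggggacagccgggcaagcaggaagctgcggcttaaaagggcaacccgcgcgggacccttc

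In ASNS the composite match began 68 bases and the GTTACA match 48 bases before the start, both on the strand of the gene. In GOT1 the composite match lay on the opposite strand, with its outermost base 198 bases before the start. A single window was used per gene symbol, 27305 out of 35116 listed, so other windows of the same gene were not searched. A composite match was present in 3.67% of these 27305 promoters and in 1.69% of the 9918 whose gene was compared here. GTTACA was present in 6.65% of the promoters searched, in 4.36% of those of compared genes and, of the 7 enzymes, in ASNS only. The NF-Y motif CCAAT, present in 35.7% of promoters (36.7% for compared genes), was found in GLUL and GOT1. The E-box CACGTG, present in 7.43% (10.2% for compared genes), was found in ALDH18A1. The windows of GLS2, GLUD1 and GOT2 held none of these 4 motifs. A match describes the letters of a window and does not show that a factor binds there.

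The comparison asks how the levels of these enzymes differ with the glucose supply. ASNS was 5.32-fold and GPT2 2.26-fold higher in TPM under low glucose, while GLUD1 stood at 0.463 and GLUL at 0.564 of their high glucose levels. GOT1 and PYCR1 were nearly level, and GOT2 and ALDH18A1 were moderately lower. Differences (low minus high glucose) are on the log2(TPM + 1) scale, where a gene counted as past 2-fold at 1 or above or at -1 or below. Of the 8 enzymes compared, 2 were at least 2-fold higher and 1 was at least 2-fold lower. Over all 13745 genes compared, 3.65% were at least 2-fold higher and 1.10% at least 2-fold lower, so 4.75% passed in either direction. These shares are also the background for the counts on the gene lists that follow. The median difference of the 8 enzymes was -0.26, with 3 above 0 and 5 below, against a median of 0.05 over all genes compared, of which 7498 lay above 0. The level classes of these enzymes had medians between -0.16 and -0.08, and with those subtracted the median of the 8 was -0.13. The libraries are bulk RNA of 1 cell line, so fewer cells expressing a gene and less of its RNA per cell cannot be told apart.

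**Figure D1:**
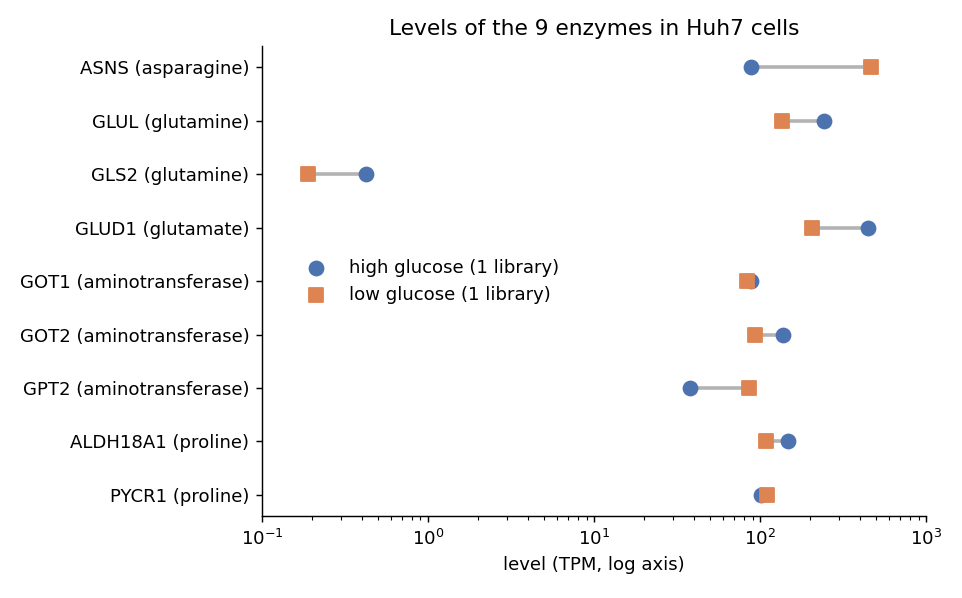
Level of each of the 9 enzymes in TPM on a log axis, with circles for the high glucose library and squares for the low glucose library (1 each). ASNS is at 88.0 and 468 TPM and GPT2 at 37.8 and 85.4 TPM, while GLUD1, GLUL and GOT2 lie to the left in low glucose, and GLS2 is below 1 TPM in both libraries.

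Asparagine synthetase. ASNS (hg19 chromosome 7, 97481429 to 97501854) makes asparagine from aspartate, with glutamine as the nitrogen donor. It was at 88.0 TPM in the high glucose library and 468 TPM in the low glucose one, a log2 difference of 2.40. Only 38 of the 13745 genes compared had a larger positive difference. Among the 539 genes whose mean level was at least that of ASNS, a single one had a larger difference, SLC3A2, the heavy chain of several amino acid exchangers. That mean rests mostly on the low glucose level of ASNS. The cut therefore leaves out less abundant genes with larger differences, such as SLC7A11 (3.04), TRIB3 (2.76) and DDIT3 (2.58). By level, ASNS was 2051st of all entries in high glucose and 273rd in low glucose. It went from seventh of the 9 enzymes to the most abundant of them. The order in high glucose was GLUD1, GLUL, ALDH18A1, GOT2, PYCR1, GOT1, ASNS, GPT2 and GLS2, and in low glucose ASNS, GLUD1, GLUL, PYCR1, ALDH18A1, GOT2, GPT2, GOT1 and GLS2. With 1 library each, no spread is available to separate neighbours in these orders, such as GOT1 and ASNS in high glucose (88.6 and 88.0 TPM) or PYCR1 and ALDH18A1 in low glucose (110.2 and 109 TPM).

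The summed level of the 9 enzymes was nearly equal in the 2 libraries, at 1291 TPM under high and 1292 TPM under low glucose. ASNS made up 6.82% of that sum in high glucose and 36.2% in low glucose. Without ASNS, the other 8 summed to 1203 and 824 TPM, a ratio of 0.685. GLUD1 alone made up 34.6% of the sum of the 9 in high and 16.0% in low glucose.

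Other genes of asparagine metabolism were within 2-fold or below the level compared. ASRGL1, an enzyme that hydrolyses asparagine to aspartate, was at 24.95 TPM under high and 16.0 TPM under low glucose, a log2 difference of -0.61. The ratio of ASNS to ASRGL1 within a library, which does not depend on scaling between libraries, was 3.53 in high and 29.3 in low glucose. The cytosolic asparaginase gene ASPG was listed at 0 in both. ASNSD1, which shares a domain with ASNS, stood at 52.4 and 44.3 TPM. AGA, a lysosomal enzyme that cleaves asparagine from glycoproteins, stood at 16.8 and 31.8 TPM (0.88), short of 2-fold. On a list of 15 genes of asparagine and aspartate metabolism, 12 were compared, and ASNS was the only one past 2-fold. The median of that list was -0.00023, with 6 above 0 and 6 below. The most abundant of these genes besides ASNS were ADSL, which acts in purine synthesis (176 and 172 TPM), and the urea cycle enzyme ASS1, which consumes aspartate (143 and 147 TPM).

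Enzymes of glutamine and glutamate. GLUL (chromosome 1, 182350839 to 182361341), glutamine synthetase, was at 241 TPM under high and 136 TPM under low glucose. Its log2 difference of -0.82 was short of 2-fold, and 295 genes of those compared had a more negative one. In its level class, the 687 genes between 124 and 225 TPM, the median difference was -0.16 and 19 genes lay below GLUL. GLS2 (chromosome 12, 56864728 to 56882198), the liver-type glutaminase, stood at 0.42 and 0.19 TPM and was not compared. The end of its interval overlaps that of SPRYD4 (13.1 and 13.6 TPM), and at so low a level no fold is read.

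GLUD1 (chromosome 10, 88809959 to 88854776), the mitochondrial glutamate dehydrogenase, was the most abundant of the 9 in high glucose. It was at 447 TPM under high and 207 TPM under low glucose, a log2 difference of -1.11. Of the genes compared, 99 had a more negative difference. Of the 433 genes with at least the mean level of GLUD1, to which its high glucose value adds most, 6 had a more negative one. These were PCNA, LYZ, HIST1H2BK, PEG10, FABP1 and PEBP1. Abundant genes as a class lay slightly below 0, with a median of -0.14 over the 687 genes of at least 226 TPM. With that median subtracted, GLUD1 was at -0.97 and no longer past 2-fold. GLUD2, an intronless copy of GLUD1 on the X chromosome, stood at 11.6 and 6.71 TPM. Reads shared by these near-identical genes make their separate levels uncertain. Summed, they were at 459 and 213 TPM, a log2 difference of -1.10. The GLUD1 pseudogenes listed were low, GLUD1P3 at 2.04 and 2.91 TPM and GLUD1P7 at 2.16 and 0.94 TPM.

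A list of 14 genes of glutamine and glutamate interconversion had 12 compared, 1 past 2-fold higher and 1 lower, with a median of -0.11 and 6 on each side of 0. Over all genes compared, the shares were 3.65% higher and 1.10% lower. On the list, the lower one was GLUD1. The higher one was GCLC, the catalytic subunit of the ligase that joins glutamate to cysteine for glutathione, at 30.01 and 66.2 TPM (1.12). GAD1, which decarboxylates glutamate to GABA, stood at 1.76 and 4.21 TPM (0.92), short of 2-fold with the pseudocount of 1 but past it with 0.1 (1.21). ASNS also belongs to the amidotransferases, enzymes that take nitrogen from the amide of glutamine. Of 11 of these compared, from 12 found, ASNS was the only one past 2-fold, and the median was -0.18 with 5 above 0 and 6 below. CTPS1, which makes CTP, stood at 59.4 and 49.8 TPM, and GFPT1, which opens the hexosamine pathway, at 62.0 and 54.5 TPM. CAD, the starter of pyrimidine synthesis, stood at 32.2 and 44.9 TPM.

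**Figure D2:**
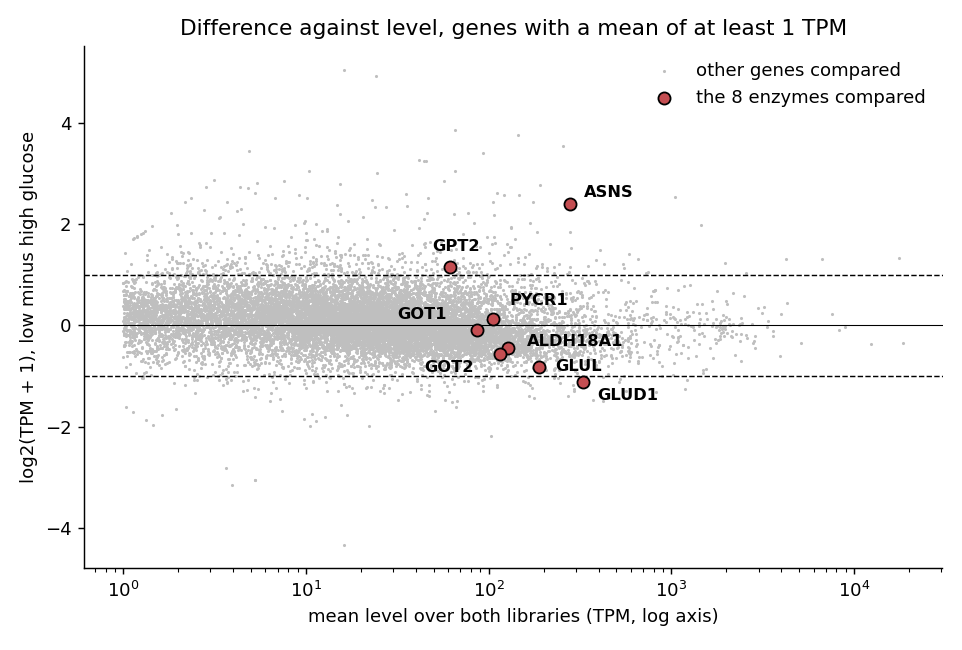
Log2(TPM + 1), low minus high glucose, against the mean level in TPM (log axis) for the 13745 genes compared, with the 8 enzymes as large points and dashed lines at 1 and -1. ASNS (2.40) and GPT2 (1.15) lie above the upper line, GLUD1 (-1.11) lies below the lower one and the other 5 lie between.

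Aminotransferases. GPT2 (chromosome 16, 46918308 to 46965201), the mitochondrial alanine aminotransferase, moves nitrogen between glutamate and alanine. It was at 37.8 TPM under high and 85.4 TPM under low glucose, a log2 difference of 1.15, with 338 genes having a larger one. In its level class, the 687 genes between 53.2 and 66.7 TPM, 13 had a larger difference. The cytosolic partner GPT stood at 5.71 and 6.27 TPM, so GPT2 made up 86.9% of their sum in high and 93.2% in low glucose. The ratio of GPT2 to GPT was 6.63 in high and 13.6 in low glucose.

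GOT1 and GOT2 are the cytosolic and mitochondrial aspartate aminotransferases, which both take part in the malate-aspartate shuttle. GOT1 (chromosome 10, 101156627 to 101190530) was at 88.6 TPM under high and 83.2 TPM under low glucose, a log2 difference of -0.09. GOT2 (chromosome 16, 58741035 to 58768261) stood at 138 and 93.2 TPM, a difference of -0.56. Both lay below 0, except GOT1 with the median of its level class subtracted (0.015), and neither was past 2-fold. GOT1 supplied 39.0% of their summed level in high and 47.1% in low glucose. The matching mitochondrial aspartate-glutamate carrier of liver, SLC25A13, stood at 73.0 and 69.5 TPM.

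Among 15 listed aminotransferases, all compared, 2 were past 2-fold, both higher, with a median of 0.08 and 9 above 0. The share higher over all genes compared was 3.65%. Most of the 15 use or make glutamate, but AGXT and AGXT2 move nitrogen from alanine to glyoxylate. The 2 past 2-fold were GPT2 and TAT, the hepatic tyrosine aminotransferase, which stood at 2.09 and 6.34 TPM (1.25). TAT came from a low level and was short of 2-fold with a pseudocount of 5, which left GPT2 as the only aminotransferase past it. The most abundant aminotransferase was PSAT1, of serine synthesis, at 332 and 539 TPM (0.70). AGXT2 was the lowest of the list in difference, at 21.2 and 10.9 TPM (-0.90).

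Proline branch. ALDH18A1 (chromosome 10, 97365686 to 97416567) makes P5C from glutamate, and PYCR1 (chromosome 17, 79890262 to 79895204) reduces P5C to proline in mitochondria. ALDH18A1 was at 148 TPM under high and 109 TPM under low glucose, a log2 difference of -0.44. PYCR1 stood at 101.5 and 110.2 TPM, a difference of 0.12. These 2 steps of the branch therefore lay on opposite sides of 0, both within 2-fold. PYCRL, a related reductase, stood at 10.9 and 8.20 TPM (-0.37), also within 2-fold.

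The proline-degrading dehydrogenase PRODH was low in both libraries, at 2.13 and 4.21 TPM. So was the related PRODH2, which acts mainly on hydroxyproline, at 2.39 and 4.10 TPM. Their log2 differences were 0.74 and 0.59. The ratio of ALDH18A1 to PRODH was 69.4 in high and 25.9 in low glucose, and it rests on a few TPM of PRODH. ALDH4A1, which oxidises P5C back to glutamate, stood at 39.6 and 30.8 TPM, and OAT, which links P5C to ornithine, at 100.2 and 74.5 TPM. Of the 9 proline and P5C genes, all compared, none was past 2-fold, with a median of -0.35 and 5 below 0.

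**Figure D3:**
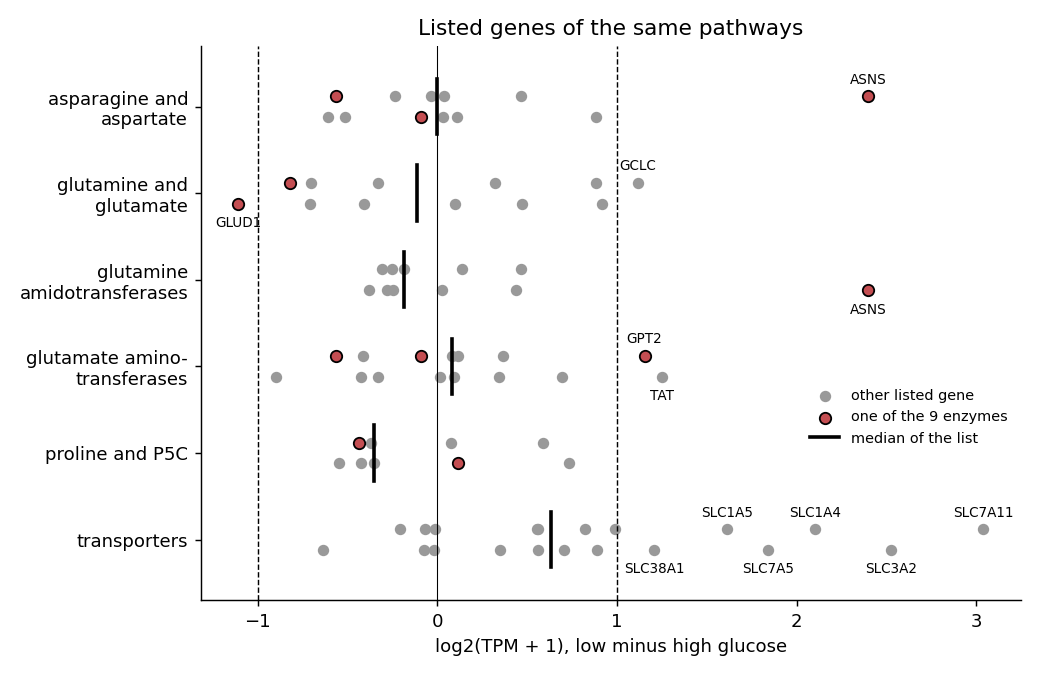
Log2(TPM + 1), low minus high glucose, of each compared gene on 6 pathway lists, with the 9 enzymes in red where compared, other genes in grey, the median of each list as a bar and dashed lines at 1 and -1. Genes past a line are named: 6 of 20 transporters lie to the right of 1, while the medians of the 5 enzyme lists lie between -0.35 and 0.08. Of all genes compared, 3.65% were at 1 or above and 1.10% at -1 or below.

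Transporters of the same amino acids were set beside the enzymes. Of 24 listed, 20 were compared, 6 were at least 2-fold higher and none was 2-fold lower, with a median of 0.64 and 14 above 0. All genes compared had a median of 0.05, with 3.65% at least 2-fold higher and 1.10% at least 2-fold lower. SLC1A5, the main glutamine importer of many tumour cells, was at 106 TPM under high and 326 TPM under low glucose. SLC1A4, a carrier of neutral amino acids, stood at 16.1 and 72.3 TPM, and the glutamine importer SLC38A1 at 78.7 and 183 TPM. SLC3A2 and its light chain SLC7A5 (LAT1), which exchanges glutamine for essential amino acids, stood at 311 and 1795 TPM and at 121 and 437 TPM. SLC7A11, which exports glutamate in exchange for cystine, stood at 13.4 and 118 TPM. The abundant SLC38A2, a glutamine and proline importer, stood at 294 and 435 TPM (0.56), within 2-fold. SLC38A3, a glutamine carrier of liver, stood at 46.4 and 93.0 TPM (0.99), and 4 alternative settings put it just past 2-fold (1.001 to 1.09), making 7. The mitochondrial carriers that import glutamate went opposite ways, both within 2-fold. SLC25A22 stood at 18.4 and 15.8 TPM (-0.20), and SLC25A18 at 5.48 and 10.5 TPM (0.82).

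Regulators and stress response genes, not all known to act on these enzymes, were read from the same libraries. ATF4 mRNA was at 658 TPM under high and 904 TPM under low glucose (0.46), within 2-fold, and its activity is set mainly at translation, which these data do not measure. A list of 10 genes held ATF4, its partners, kinases upstream of it and genes downstream. Of these, 4 were past 2-fold higher (ATF3, CEBPB, DDIT3 and TRIB3) and none was lower, with a median of 0.88 and 8 above 0. The shares over all genes compared were 3.65% higher and 1.10% lower. CEBPB, a partner of ATF4 at composite elements, stood at 133 and 283 TPM (1.08), and with trimmed-mean scaling it was short of 2-fold (0.99), which left 3. TRIB3, a pseudokinase induced by ATF4, stood at 48.5 and 335 TPM, DDIT3 (CHOP) at 34.1 and 208 TPM and ATF3 at 7.79 and 82.7 TPM. The 2 genes of this list below 0 were ATF5, at 44.2 and 27.5 TPM (-0.67), and the upstream kinase EIF2AK4, at 12.6 and 11.1 TPM (-0.17). A second list held MYC and other factors tied to these enzymes, with 6 compared. MYC stood at 105 and 198 TPM (0.91; 1.07 with the median of its level class subtracted), and MYCN, the only one of the 6 past 2-fold, at 11.8 and 3.00 TPM (-1.68).

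Lists of zonation markers, to which GLUL and GLS2 belong, had medians near 0. Of 10 perivenous markers compared, SLC1A4 was the only one past 2-fold, and the median was -0.02 with 5 on each side of 0. The other perivenous markers went both ways. AXIN2 was at 2.58 and 2.87 TPM and LGR5 at 8.65 and 9.49 TPM, while RHBG, an ammonia transporter, was higher at 7.69 and 14.8 TPM (0.86). RNF43 was lower at 21.5 and 12.5 TPM (-0.73), as was the cytochrome gene CYP2E1 at 1.88 and 0.75 TPM (-0.72), which passed 2-fold with a pseudocount of 0.1 (-1.22). Of 7 periportal markers compared, none was past 2-fold, with a median of 0.04, 5 above 0 and 2 below. ASS1 and ASL (128 and 131 TPM), the most abundant, were nearly level. SLC7A2, an arginine transporter, was at 53.8 and 105 TPM (0.95) and passed 2-fold with the median of its level class subtracted (1.06). HSD17B13 (3.47 and 5.96 TPM) and HAL (2.10 and 3.44 TPM) were also higher, within 2-fold. The periportal enzymes CPS1 (6.06 and 3.45 TPM) and SDS (listed at 0 in both) were low, as GLS2 was.

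Markers of hepatocytes and hepatoma cells were abundant, with 9 of 9 at 1 TPM or more and sums of 40523 and 34490 TPM (high and low glucose). Endothelial markers summed to 2.14 and 2.21 TPM, with KDR at 0 in both, and fibroblast markers to 30.3 and 40.6 TPM. Leukocyte markers other than LYZ summed to 3.99 and 2.88 TPM, whereas LYZ itself stood at 550.3 and 198 TPM. Cholangiocyte markers, some shared with liver cancer cells, summed to 184 and 163 TPM.

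**Figure D4:**
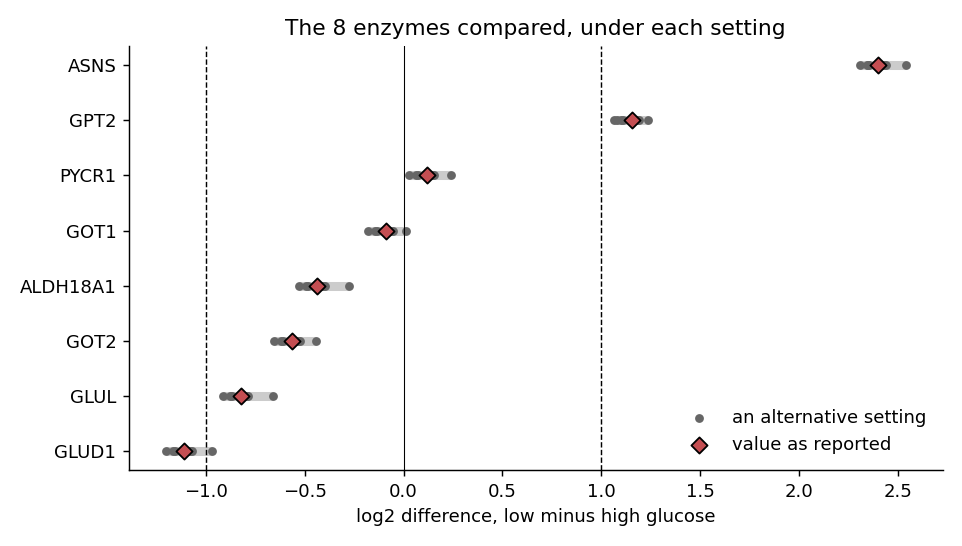
Log2 difference, low minus high glucose, of the 8 enzymes compared, with diamonds for the value reported, grey points for 10 alternative scalings, pseudocounts and filters, and dashed lines at 1 and -1. ASNS ranges from 2.31 to 2.54 and GPT2 from 1.06 to 1.23, while GLUD1 ranges from -1.20 to -0.97 and crosses the line once. The 2 level filters repeat the reported value by construction.

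The differences of ASNS and GPT2 were past 2-fold under all 10 alternative settings of scaling, pseudocount and level filter, and that of GLUD1 under 9. These settings vary the calculation on the same 2 libraries and do not measure how cultures vary.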

How the data were processed

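RNA from 1 high glucose and 1 low glucose library was compared, grouped by the treatment label. The deposited values are TPM per gene, per the file headers. The submitters' processing notes name cutadapt, RSEM 1.2.21 and hg19; no label or header gives the aligner, annotation, strand handling or filters. TPM fixes the total of a library, so a gene with a larger share lowers the others. Reads behind a value are not given, so no counting interval is printed. Entries with a mean of at least 1 TPM were compared as log2(TPM + 1), low minus high glucose, and past 2-fold meant at least 1 or at most -1; this scale understates the differences of low genes. Level classes are 20 groups of equal size by mean TPM. With 1 library per medium no test was made.

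The members, lists, naming rule and alternatives were chosen with earlier results of these data known. Named were all 9 enzymes and, per list, genes past 2-fold, the most abundant ones and partner enzymes. Other listed genes (such as AGA, GAD1, AGXT2, CTPS1, CAD, RNF43, RHBG, CYP2E1, SLC7A2, SLC38A3, SLC25A18, AXIN2, LGR5, ATF5, EIF2AK4) were chosen after their values were seen. The amidotransferase list held both older and newer symbols of 2 genes. Gene intervals are the authors' hg19 ones; promoter sequences are RefSeq, GRCh38.p14, joined by symbol only. A few listed genes are not reported here. The calculation was tested on simulated data. Python 3.11.15, numpy 2.4.6, pandas 2.3.3 and matplotlib 3.10.9 were used.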

Additional observations from a re-analysis of the deposited data

How the results depend on the processing

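No paired analysis was possible because each medium has 1 library, and no library could be left out. Across 6 scalings and 2 pseudocounts, all 8 enzymes except GOT1 kept their sign, and calls at 2-fold held for all but GLUD1. The 2 level filters change which genes are compared and cannot change the difference of a gene. With the median of each expression group subtracted, GLUD1 was at -0.97 and GOT1 at 0.015, leaving 0 enzymes past 2-fold lower. GLUL ranged from -0.91 to -0.66. At 1.5-fold, 2 enzymes were lower (GLUD1 and GLUL); at 3-fold, 1 was higher (ASNS) and 0 lower. Over all genes, 502 were higher and 151 lower; the counts were 1786 and 835 at 1.5-fold, 119 and 22 at 3-fold, and 234 and 79 with a pseudocount of 5. With a mean of at least 10 TPM, 293 genes were higher, among the 9457 compared. The ratio of GLUL to GLS2 rests on a GLS2 level below 1 TPM: from high to low glucose it changed by a factor of 1.25, and by 0.675 with 1 TPM added to both values. The scalings placed the median of all genes between -0.03 and 0.08. Of 240 counts on the pathway lists under alternatives, 214 were within 1.5 times the reported count, and of 110 medians, 90 kept their sign and moved by less than 0.1. The medians near 0 of the asparagine and aspartate list (0.03 to 0.07) and the aminotransferase list (-0.0068 and -0.03) changed sign under 3 and 2 settings, and so did those of the zonation lists (perivenous up to 0.06, periportal down to -0.05). The depth behind low levels such as GLS2 was not determined.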

Other observations

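Across all genes compared that had a RefSeq promoter window, the composite element TGATGNAA was present in 168. Of these, 19 (11.3%) had a low glucose level past 2-fold higher, ASNS among them, and 3 (1.79%) past 2-fold lower, while GOT1 was within 2-fold. Of the 9750 genes without a match, 316 (3.24%) were higher and 95 (0.974%) lower. The median difference was 0.10 with and 0.03 without a match. No test was made of this difference, and neither expression level nor base composition was matched between the groups. For GTTACA, the shares at least 2-fold higher were 3.70% with and 3.36% without a match, and the shares at least 2-fold lower were 2.08% and 0.938%.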
